A study of Mus musculus with 6 samples.

Results

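The transcripts described here are those of the mitochondrial genome, taken as every m6A peak that the authors placed on chromosome MT in either of their comparisons. There were 15 such peaks on 9 genes, 7 of 24127 peaks in the comparison of ClpP cKO with WT and 8 of 23681 in the comparison of ClpX cKO with WT. They were chosen by their place on the chromosome and by the authors' peak calling, so enrichment above input was part of the choice. Their values are given as a description, with no test.

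An antibody against N6-methyladenosine (m6A) was used to pull down modified RNA, which was then sequenced, in primary male mouse germ cells, described as spermatocytes, at postnatal day 35. The 3 genotypes were ClpP cKO, ClpX cKO and WT, each with 1 immunoprecipitated (IP) library of captured RNA and 1 input library of RNA before capture. The deleted genes encode the parts of ClpXP, a protease of the mitochondrial matrix in which ClpX unfolds substrates with ATP and ClpP cuts them. Both knockouts were restricted to male germ cells by a Cre driven from Stra8, a gene switched on as germ cells prepare for meiosis. Whether WT animals carried Cre or floxed alleles, and how many animals went into a library, is not stated in the sources used here. With 1 library per group, no value has a replicate error. Each table gives 1 fold enrichment (IP over input, a linear ratio) per peak, not split by library. It also gives 1 log2 fold change of that enrichment, read here as cKO over WT. Levels of RNA in input and IP are not given separately, so more antibody capture per transcript and a different amount of transcript cannot be told apart, nor can fewer cells of a type and less RNA per cell.

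The mitochondrial genome is transcribed from both strands into long polycistronic precursors by the RNA polymerase POLRMT. The precursors are cut largely at the tRNAs that lie between the genes, which releases the ribosomal RNAs and the messenger RNAs for core subunits of respiratory complexes I, III, IV and V. In nuclear messenger RNAs, m6A is written mainly by the METTL3 and METTL14 complex in the nucleus, a compartment that mitochondrial transcripts do not pass through. Mitochondrial RNA carries other methyl marks, among them dimethyladenosine on the small ribosomal RNA, placed by TFB1M, and N1-methyladenosine. The capture assay by itself does not resolve single bases.

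RefSeq places 37 genes on the mitochondrial chromosome of GRCm38, and 9 of them carried a peak. Both ribosomal RNA genes did, but in the ClpP comparison alone. Of the 13 protein-coding genes 3 had a peak in the ClpP comparison and 7 in the ClpX comparison. By respiratory complex these were 5 of 7 complex I genes, the single complex III gene and 1 of 3 complex IV genes, while neither of the 2 complex V genes had one. The 6 protein-coding genes without a peak (mt-Nd3, mt-Nd4l, mt-Co2, mt-Co3, mt-Atp6 and mt-Atp8) are 204 to 784 bases long, against 519 to 1824 bases for the 7 with one. These ranges overlap, since mt-Nd6 at 519 bases had a peak and mt-Co3 at 784 bases had none. In gene order the 6 follow one another between mt-Co1 and mt-Nd4, from the start of mt-Co2 at 7013 to the end of mt-Nd4l at 10173. Neither length nor place was tested as a reason. None of the 22 tRNA genes had a peak. At 59 to 75 bases they are shorter than the shortest peak of either table, 108 bases.

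The ribosomal RNA peaks came first along the chromosome. mt-Rnr1, the 12S RNA of the small mitochondrial ribosomal subunit, had a peak at MT positions 756 to 905, which covers 15.7% of the gene and ends 119 bases before its 3′ end. mt-Rnr2, the 16S RNA of the large subunit, had one at 1094 to 1422, starting on the first base of the gene and covering 20.8% of it. Each was on the plus strand.

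Among complex I genes, mt-Nd2 (3914 to 4951) carried peaks at 3914 to 4240 and 4418 to 4951 in the ClpP comparison and a single peak over all 1038 bases in the ClpX comparison. mt-Nd4 (10167 to 11544) carried peaks at 10885 to 11035 and 11305 to 11544 in the ClpP comparison, and 1 peak at 10676 to 11544 in the ClpX comparison. Both genes therefore had a peak that reached the last base of the gene in each comparison. mt-Nd5 (11742 to 13565) carried a peak that starts on its first base in each comparison, to 11951 for ClpP and to 12190 for ClpX, and in the ClpX comparison a further peak at 12340 to 13565.

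The remaining genes had a peak in the ClpX comparison alone. These were mt-Nd1 at 2841 to 3647 (84.3% of the gene), mt-Co1, the catalytic subunit of cytochrome c oxidase, at 6575 to 6813 (15.5%), and mt-Cytb, the cytochrome b subunit of complex III, at 14614 to 15259 (56.5%). mt-Nd6, which is encoded on the other strand, had a minus-strand peak over its whole length, 13552 to 14070. Its peak shares 14 bases with the second mt-Nd5 peak on the plus strand. The sources used here do not say whether the authors' counting used strand, so reads over those bases cannot be assigned to 1 of the genes.

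**Figure D1:**
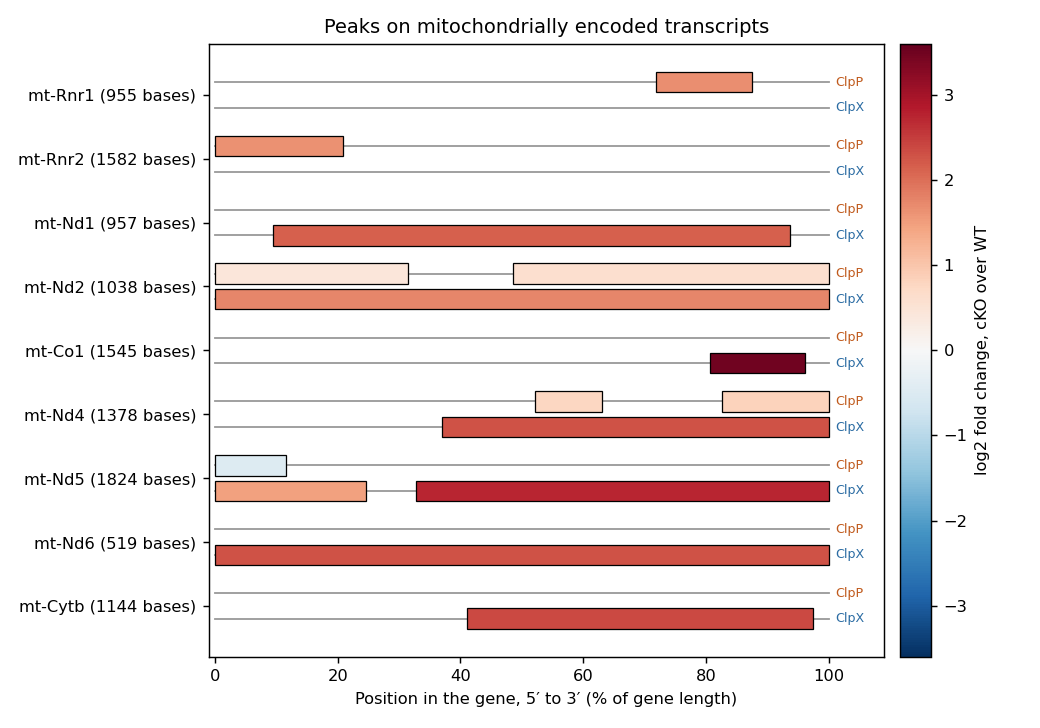
Each gene with a peak is drawn from its 5′ to its 3′ end (x axis, percent of gene length), with the ClpP comparison on the upper line and the ClpX comparison on the lower line. Boxes are peaks and their colour is the log2 fold change of enrichment, cKO over WT. The ClpX boxes are wider on mt-Nd2, mt-Nd4 and mt-Nd5, and the only blue box is the mt-Nd5 peak of the ClpP comparison.

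In sum of bases, peaks covered 1941 bases in the ClpP comparison and 5793 in the ClpX comparison. The 1462 bases under a peak in both are 75.3% of the ClpP bases and 25.2% of the ClpX bases. All 5 ClpP peaks on mt-Nd2, mt-Nd4 and mt-Nd5 lay wholly inside a ClpX peak of the same gene. Keeping best mutual pairs, 3 peaks were paired between the comparisons, 1 on each of these genes. ClpX peaks were the longer ones, with a median of 726.5 bases, against 240 bases for the ClpP peaks and 300 to 301 bases over all peaks of either table.

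In ClpP cKO, enrichment at mitochondrial peaks was called higher than in WT at 6 of 7 sites and lower at 1. A site was called where the adjusted p in the authors' deposited table was under 0.05, which holds for 19.6% of all peaks of that table, 6.74% higher and 12.8% lower. Such a call compares 1 pair of ClpP cKO libraries with 1 pair of WT libraries. mt-Rnr1 and mt-Rnr2 were listed in this comparison alone, though the WT libraries were the same in both. A high value in ClpP cKO could have helped them to be listed, so the count beside the background is a description only. The 7 log2 fold changes in the authors' deposited table ran between -0.48 and 1.67 with a median of 0.79, against a median of -0.03 over all peaks. Of the 7, 2 were called with a log2 change of 1 or more in size, both higher, against 9.15% of all peaks (4.5% higher).

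The ribosomal RNAs had the largest of these values. The authors' deposited table gives a log2 fold change of 1.67 for mt-Rnr1 and of 1.65 for mt-Rnr2, or 3.18-fold and 3.14-fold on the linear scale. Both stood at the lowest log10 p for a difference in the table, -434, and the next lowest was -196. The lowest value was also -434 in the ClpX comparison, so it was treated as a floor. The gap to -196 is therefore not a measure of strength. The 2 nuclear peaks that shared the value of -434, on Gm10800 and Fhl4, were called lower. By size they were less extreme, at the 92.5th and 92.3rd percentile of all log2 fold changes of the table. Fold enrichment was low at both, 1.14 for mt-Rnr1 and 1.87 for mt-Rnr2 in the authors' deposited table, against a median of 8.23 over all peaks. The mt-Rnr1 peak thus held only slightly more IP than input signal.

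The messenger RNAs moved less in ClpP cKO. For mt-Nd2 the authors' deposited table gives log2 fold changes of 0.43 at the 5′ peak and 0.62 at the 3′ peak, with log10 adjusted p-values of -47 and -113. For mt-Nd4 it gives 0.79 at the 5′ peak and 0.84 at the 3′ peak in the authors' deposited table, with log10 adjusted p-values of -25 and -80.4. If each deposited p came from a normal test, the standard errors behind these log2 values would be 0.029 and 0.027 for mt-Nd2 and 0.072 and 0.043 for mt-Nd4. At most these errors cover counting within the libraries, and they leave out the spread between animals. The gap between the 2 sites was larger than both errors at mt-Nd2 but not at mt-Nd4. Whether the sites of a gene differ was not tested.

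The single decrease was the first peak of mt-Nd5, a core subunit of the proton-pumping arm of complex I. In the authors' deposited table its log2 fold change was -0.48, with -17.5 as the log10 of the adjusted p, and the implied standard error was 0.052. The fold enrichment there was 2.06 in the authors' deposited table, close to the 1.99 of the mt-Nd4 3′ peak, which was called higher. Enrichment at neighbouring genes of the same strand thus moved in opposite directions in ClpP cKO.

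In ClpX cKO, enrichment was called higher than in WT at 8 of 8 mitochondrial peaks and lower at 0. The background was 20.1% of all peaks called, 15.1% higher and 5% lower. Of the 8, mt-Nd1, mt-Co1, mt-Nd6, mt-Cytb and the 3′ peak of mt-Nd5 overlap no ClpP peak, though the WT libraries were the same. A high value in ClpX cKO could have helped these peaks to be listed, so the count beside the background is a description only. All 8 log2 fold changes in the authors' deposited table were at least 1; of all peaks 13.7% were called at that size, 10.2% higher. They ran between 1.48 and 3.51 with a median of 2.29, against a median of 0.24 over all peaks of the authors' deposited table.

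mt-Co1 had the largest of these changes in the authors' deposited table, a log2 fold change of 3.51 or 11.4-fold, with -104 as the log10 of the adjusted p and an implied standard error of 0.16. It ranked 175 of 23681 by size. For the 3′ peak of mt-Nd5 the authors' deposited table gives 2.74, for mt-Cytb 2.39, for mt-Nd4 2.29 and for mt-Nd6 2.28. mt-Nd1 followed at 2.15 and mt-Nd2 at 1.77 in the authors' deposited table. These 6 peaks share the lowest log10 p of the table, -434, so their p-values give no order among them. The 1 nuclear peak that also reached it, on Gm10800, was called lower.

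The 5′ peak of mt-Nd5 had the lowest log2 fold change of the 8 in ClpX cKO, and the mt-Nd5 peak that starts on the same base had the lowest of the 7 in ClpP cKO. In the authors' deposited table its log2 fold change was 1.48, with -204 as the log10 of the adjusted p, and the implied standard error was 0.048. Within mt-Nd5 the 3′ peak stood 2.74 against 1.48 at the 5′ peak in the authors' deposited table. In sequence along the plus strand, the mRNA values for ClpX cKO were highest in mt-Co1 and lowest at the start of mt-Nd5, with no steady trend from mt-Nd1 to mt-Cytb. mt-Nd6, from the other strand, lay within the range of the plus-strand genes.

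**Figure D2:**
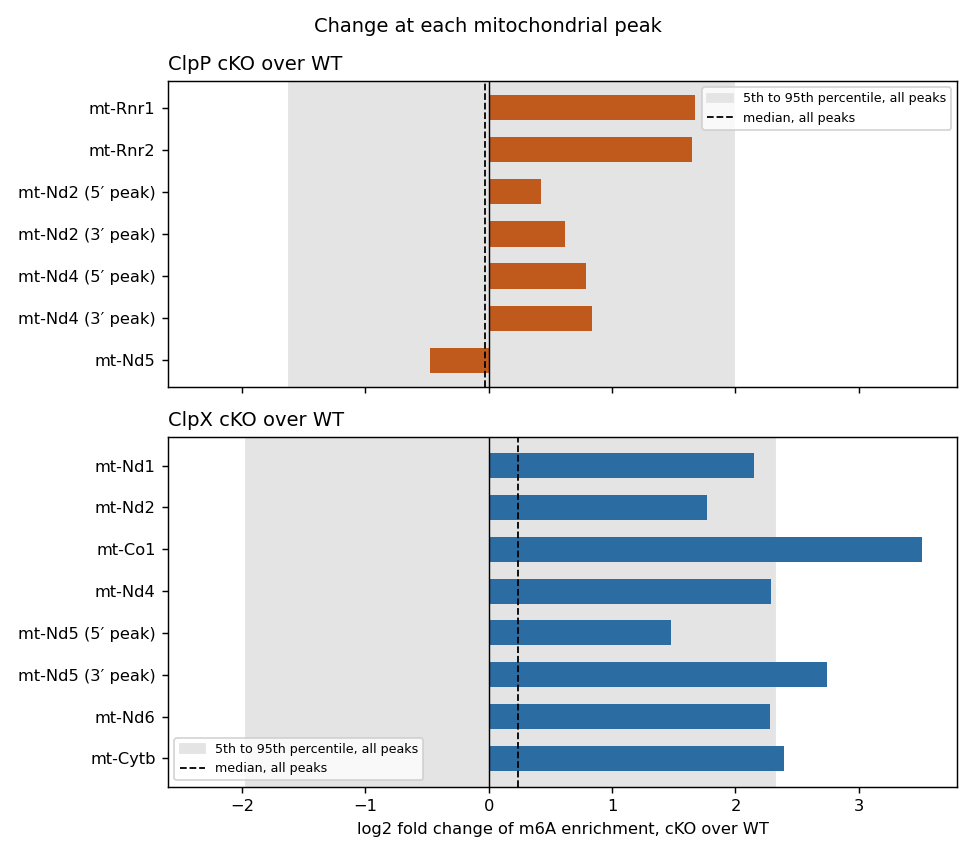
Bars give the log2 fold change of m6A enrichment, cKO over WT, at each mitochondrial peak (x axis), in chromosome order down the page, for ClpP cKO above and ClpX cKO below. The grey band spans the 5th to 95th percentile of all peaks of that table and the dashed line is their median. No ClpP bar passes the band (95th percentile 1.99), and 3 ClpX bars do (2.32).

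The same sites can be set side by side between knockouts, which share their WT libraries. At mt-Nd2 the authors' deposited table for ClpX gives 1.77 over the whole gene, and that for ClpP 0.43 and 0.62 at the sites inside it. At mt-Nd4 the values are 2.29 for ClpX and 0.79 and 0.84 for ClpP in the authors' deposited tables. At the start of mt-Nd5 they are 1.48 for ClpX and -0.48 for ClpP in the authors' deposited tables, the 1 overlapping site where the knockouts had opposite signs. The difference between knockouts was not tested, and the boundaries of the peaks differ. mt-Rnr1 and mt-Rnr2 have no ClpX value here, and mt-Nd1, mt-Co1, mt-Nd6 and mt-Cytb have no ClpP value, since a site without a called peak is not listed.

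Most mitochondrial peaks were weakly enriched. The authors' deposited table for ClpP gives fold enrichments of 3.25 and 3.31 at mt-Nd2, 1.12 and 1.99 at mt-Nd4 and 2.06 at mt-Nd5. The value of 1.12 at the mt-Nd4 5′ peak is the lowest of all 24127 peaks. In the ClpX comparison the authors' deposited table gives 1.67 for mt-Nd1, 2.08 and 5.14 for mt-Nd5, 2.73 for mt-Nd6, 2.74 for mt-Cytb and 6.1 for mt-Nd2. All of these lie under the median over all ClpX peaks, 8.9.

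mt-Co1 and mt-Nd4 stood apart in the ClpX comparison, with fold enrichments of 91.4 and 88.9 in the authors' deposited table. Both are above the 99th percentile of that table (99.7 for each). For mt-Nd4 this is 44.7 times the fold enrichment of the paired ClpP peak, which ends on the same base. Over 6928 nuclear pairs of peaks on 1 gene that end on the same base in both tables, this ratio had a median of 1.10 and a maximum of 26.9, at Pou2f1. The 88.9 at mt-Nd4 also came with a log10 peak p of -1080 in the authors' deposited table, while mt-Nd2, at 6.1, had -6520. mt-Co1, at 91.4, had a log10 peak p of only -225 in the authors' deposited table, and no ClpP peak to set it against. Fold enrichment and peak p thus ordered these sites differently, and the fold enrichments of mt-Co1 and mt-Nd4 may be unsound.

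**Figure D3:**
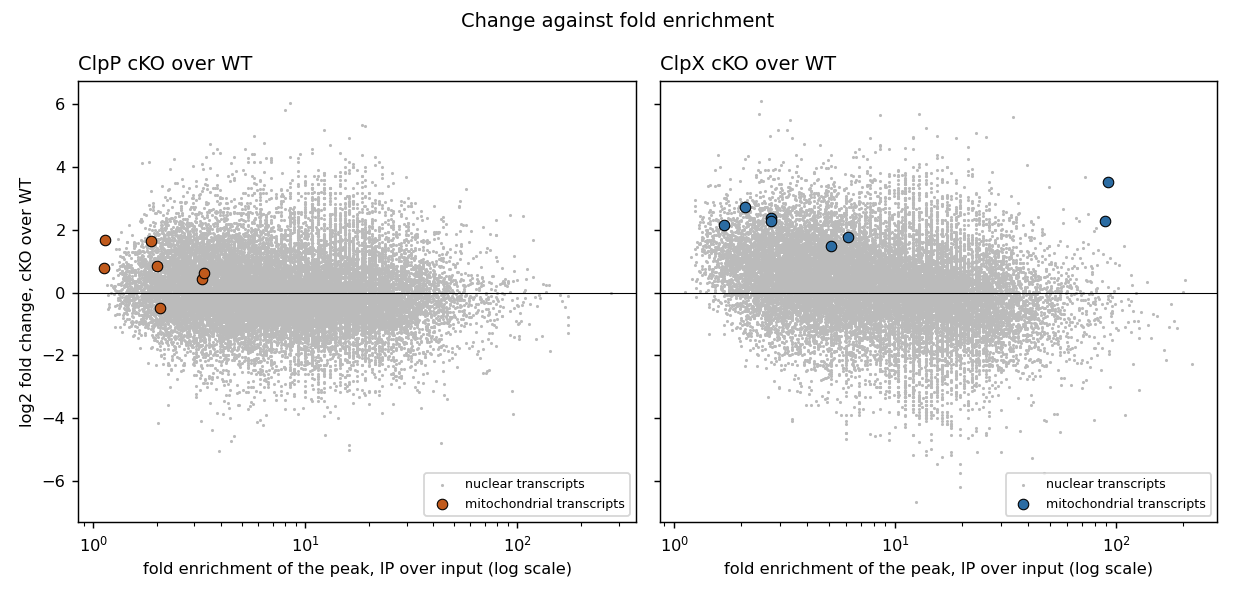
Each point is a peak, with its fold enrichment on a log x axis and its log2 fold change, cKO over WT, on the y axis; ClpP cKO is on the left and ClpX cKO on the right, nuclear transcripts grey and mitochondrial transcripts coloured. All 7 ClpP peaks lie at 3.31 or below, while 2 ClpX peaks lie near 90, above the cloud of nuclear peaks of like enrichment.

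Nuclear peaks of like enrichment give a further scale for these changes, with bounds chosen after the values were seen. Of 4089 nuclear peaks with a fold enrichment under 3.5 in the ClpX comparison, 1433 were called higher and 51 lower, and the median log2 change was 0.83. The 4 mitochondrial peaks in that range had a median of 2.34. Weakly enriched ClpX peaks thus tended upward in general, and the mitochondrial ones lay above that median. In the ClpP comparison 4731 nuclear peaks under 3.5 had a median of 0.17, with 739 called higher and 572 lower, against 0.79 for all 7 mitochondrial peaks. Of 92 nuclear ClpX peaks with a fold enrichment of 80 or more, 2 were called higher (Casp8ap2 and Rbsn) and 16 lower, and the largest log2 fold change was 2.05, at Klf8. These nuclear genes, like the others of this scale, were named after their values were seen. mt-Nd4 at 2.29 and mt-Co1 at 3.51 in the authors' deposited table exceeded it, a placing that holds only as far as their fold enrichments do.

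A second scale is the support for a peak, its p against input, with a bound that was likewise chosen after the values were seen. The log10 peak p was -400 or lower at 578 nuclear peaks of the ClpP comparison, of which 462 were called lower and 13 higher, with a highest log2 fold change of 0.99, at Mplkip. Among the 5 mitochondrial peaks with that support 4 were called higher and 1 lower. mt-Rnr2 at 1.65 in the authors' deposited table lay above all 578, and only 8 of the 578 reached the 0.43 of the mt-Nd2 5′ peak. The mt-Nd5 peak, at -0.48 in the authors' deposited table, lay near the median of these nuclear peaks, -0.54. In the ClpX comparison 447 nuclear peaks had that support, with 171 called higher, 92 lower and a highest log2 fold change of 1.39, at Srrm2. The 7 mitochondrial peaks with that support had values between 1.48 and 2.74. Support is 1 value per peak in each comparison, and was taken to include the knockout libraries. mt-Nd1, mt-Nd6, mt-Cytb and the 3′ part of mt-Nd5 had no peak in the ClpP comparison with the same WT libraries. Likewise, mt-Rnr2 had none in the ClpX comparison. A high value in a knockout could thus help a peak to be listed and to pass the bound. The place of these peaks above the nuclear ones, mt-Rnr2 included, is therefore a description only.

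**Figure D4:**
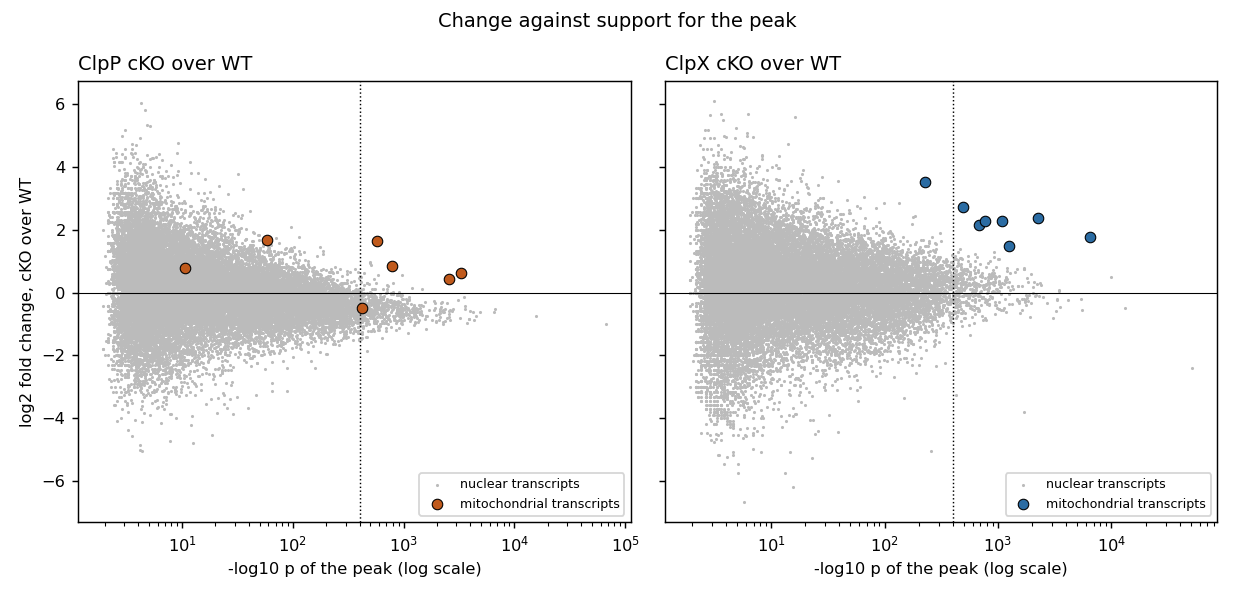
Each point is a peak, with the -log10 p of the peak on a log x axis and the log2 fold change, cKO over WT, on the y axis; ClpP cKO is on the left and ClpX cKO on the right. The dotted line marks 400; the 13 ClpP and 8 ClpX peaks whose log10 p was listed as minus infinity, all nuclear, are not drawn. Right of the line, the 7 ClpX mitochondrial peaks lie above every nuclear peak, and in ClpP cKO 1 of 5 does.

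Nuclear DNA holds copies of mitochondrial genes, whose reads can be confused with the mitochondrial ones. RefSeq names 1 such pseudogene with a mitochondrial gene among its synonyms, Gm10925 on chromosome 1 (24613971 to 24614651), a copy of mt-Atp6. Neither table lists a peak within 10000 bases of it. mt-Atp6 itself had no mitochondrial peak, and nuclear copies of the genes with a peak were not looked at. The sources used here do not say how reads that match both genomes were assigned. If such reads were dropped or placed on the mitochondrial genome, a copy would show no peak either. The missing peak at Gm10925 is thus not informative, and the part of nuclear copies in the mitochondrial values was not tested.

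Peaks on transcripts of nuclear genes that make, handle or modify mitochondrial RNA were looked at next. Each gene is given by the peak where the p of its difference was smallest; on that count 9.5% of all genes were higher and 19.3% lower in the ClpP comparison. Of 35 genes in a list for transcription and RNA handling 32 had a peak, 1 called higher and 9 lower; their median log2 fold change was -0.40 against -0.16 over all genes. Of 26 RNA modification genes 20 had a peak, 1 higher and 7 lower, with a median of -0.60. More genes called lower than higher is thus the pattern of the whole ClpP table as well, and nothing particular to the lists is read from it. The lists share Tfb1m, and some of their members also act on cytosolic RNA.

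Polrmt, the mitochondrial RNA polymerase, was called lower in ClpP cKO at -1.81 (chromosome 10, 79739538 to 79739717; adjusted p 0.0021) in the authors' deposited table. Tfam, which packs mitochondrial DNA and starts transcription, was at -1.18, and Tfb1m, the dimethyltransferase of 12S RNA, at -0.87 in the authors' deposited table. Mrm3, a ribose methyltransferase of 16S RNA, was at -1.80, and Fastkd2, needed for 16S RNA and large-subunit assembly, at -0.83 in the authors' deposited table. These 5 calls lie on nuclear messenger RNAs and were opposite in sign to the ribosomal RNA peaks. The 1 gene called higher in each list had the same sign as those peaks. These were Fastkd5 at 1 and Nsun4 at 1.40 in the authors' deposited table, both named after their values were seen. The authors' deposited table further gives -0.58 for Dhx30, an RNA helicase of mitochondrial RNA granules, -1.58 for the dioxygenase Alkbh1 and -2.95 for Angel2. The Tfb1m peak overlaps the span of a peak of Tiam2, and the Fastkd5 peak that of a peak of Ubox5.

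In ClpX cKO the handling list had 9 genes called higher and 5 lower of 31 with a peak, with a median of 0.22 against 0.36 over all genes, of which 21.7% were higher and 7.58% lower. The modification list had 1 higher and 4 lower of 21, with a median of -0.19. Called higher in the authors' deposited table were Tbrg4, a stability factor of mitochondrial mRNAs, at 2.59, Grsf1, an RNA-binding protein of the granules, at 1.70, Ptcd1 at 1.19 and the cytosine methyltransferase Nsun2 at 0.87. Fold enrichment was low at Tbrg4 (1.61) and Grsf1 (1.87) in the authors' deposited table, and the Ptcd1 peak overlaps the span of a peak of Bud31. Called lower were Mettl15, the cytidine methyltransferase of 12S RNA, at -2.43, and Pde12, which removes poly(A) tails, at -1.61 in the authors' deposited table. In the authors' deposited table for ClpX, Polrmt at 0.80 and Dhx30 at 0.83 were called higher, opposite to ClpP at overlapping sites. Angel2, Ptcd1 and Fastkd5 were also called in opposite directions, but at sites that do not overlap. Angel2 was at 1.48 and Fastkd5 at -1.27 for ClpX, and Ptcd1 was at -0.79 for ClpP, in the authors' deposited tables. Fastkd2 at -0.79 and Alkbh1 at -1.45 were called lower in the authors' deposited table for ClpX, as in that for ClpP at overlapping sites. The same holds for Mrm2, named after its values were seen, at -1.38 for ClpX and -1.28 for ClpP in the authors' deposited tables.

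**Figure D5:**
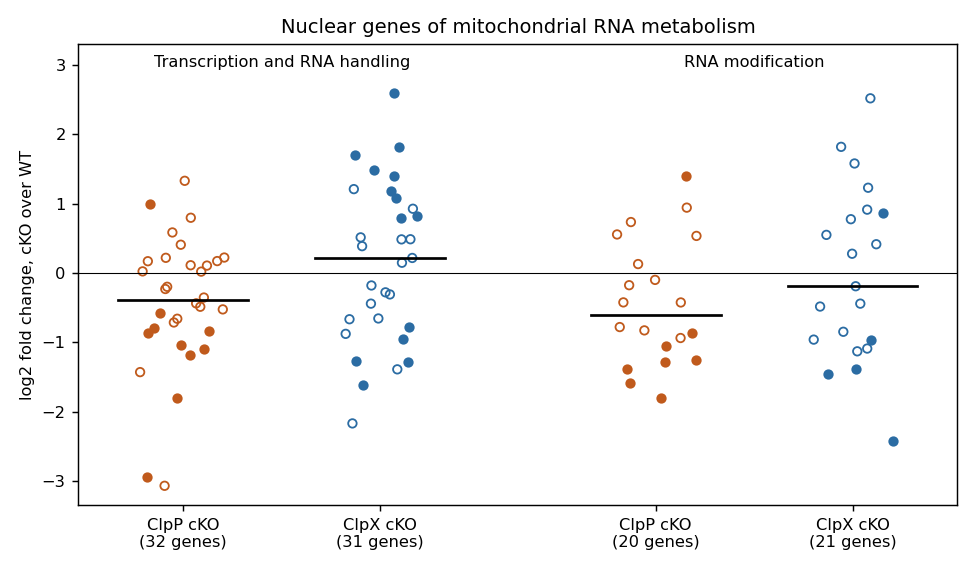
Each point is a nuclear gene of mitochondrial RNA metabolism, with its log2 fold change, cKO over WT, on the y axis; filled points were called at an adjusted p under 0.05 and black lines are medians. Called genes are mostly below 0 in ClpP cKO, 9 and 7 against 1 and 1, where 19.3% of all genes were lower and 9.5% higher, and lie on both sides of 0 in ClpX cKO, where 7.58% of all genes were lower and 21.7% higher.

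Trmt61b, which writes N1-methyladenosine in mitochondria, was not called in either comparison, at 0.54 for ClpP and -0.19 for ClpX in the authors' deposited tables. Of 4 nuclear-encoded genes for m6A on ribosomal or small nuclear RNA (Mettl5, Zcchc4, Mettl16 and Trmt112), Zcchc4 and Mettl16 had a peak, and neither was called in either comparison.

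The cell label was checked only by whether marker transcripts carried a peak, since expression is not given. Of 10 spermatocyte markers 8 had one in the ClpP comparison, 1 higher and 1 lower, and 7 in the ClpX comparison, 2 higher and 1 lower. Of 3 markers of germ cells in general, Tex101 had a peak in both comparisons, Dazl in the ClpP comparison alone and Ddx4 in neither. Tex101 was called lower in ClpP cKO and was not called in ClpX cKO, and Dazl was not called. All 6 spermatid markers had a peak in both, with 2 called higher and 1 lower in ClpP cKO (median log2 fold change 0.25) and 5 higher and 0 lower in ClpX cKO (median 0.78). Of 17 Sertoli, Leydig and other somatic markers 9 had a peak in the ClpP comparison, 3 higher and 1 lower, and 12 in the ClpX comparison, 5 higher and 1 lower. Over all genes 9.5% were higher and 19.3% lower for ClpP, and 21.7% higher and 7.58% lower for ClpX. The somatic markers' log2 fold changes ran between -1.14 and 2.13 with a median of 0.86 for ClpP, and between -2.55 and 3.5 with a median of 1.78 for ClpX. Amh, Acta2, Pecam1, Ptprc and Cyp11a1 had no peak in either table. The medians of the spermatid and somatic markers and of the mitochondrial peaks all stood above the median of their tables. Spermatocyte markers had medians of 0.16 for ClpP and 0.21 for ClpX. General germ cell markers had 0.25 for ClpP and, from Tex101 alone, 0.22 for ClpX. These too were above the table's median over all peaks for ClpP (-0.03), but were below it for ClpX (0.24). Marker values are 1 per gene, from the peak with the smallest p. On that count the medians over all genes were -0.16 for ClpP and 0.36 for ClpX, and the order was the same. The part of other cell types in the mitochondrial values was not tested.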

How the data were processed

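The authors deposited 1 table for ClpP cKO and 1 for ClpX cKO, each set against WT and made from 4 libraries. Per the submitters' processing notes, reads were placed on GRCm38 (mm10); the aligner, the peak caller and the scaling between libraries were not stated in the sources used here. A peak has, per the file headers, a p-value and scores that are log10 of p-values. The authors also deposited a fold enrichment (a linear ratio) and a log2 fold change per peak. Depth per library is unknown, so no interval that needs it is given.

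Starts were made 1-based. Calls used the deposited adjusted p under 0.05 over the whole table, and 99.4% (ClpP) and 99.3% (ClpX) of deposited adjusted p-values lay within 0.05 on the log10 scale of a Benjamini-Hochberg adjustment made anew. No test across replicates was possible. The implied standard error is the absolute log2 fold change over the normal quantile of the deposited two-sided p. Overlap was at least 1 base on the same strand. Mitochondrial genes were matched to RefSeq (GRCm38.p6) by name and position, and every peak lay inside its gene. The adjustment and the pairing were tested on simulated data (Python 3.11.15, pandas 2.3.3, scipy 1.17.1).

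The direction, cKO over WT, comes from the tables' naming, and was checked on 2669 nuclear peaks with identical blocks in both tables. Where the ClpX log2 fold change exceeded that of ClpP by over 1 (503 peaks), the ClpX fold enrichment was the higher one at 92.0%; where it was lower by over 1 (252 peaks), at 17.5%. This is the pattern of cKO over WT if a table's enrichment pools its libraries.

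Every mitochondrial peak is named, and of the nuclear lists up to 8 called genes per comparison by smallest adjusted p. Mrm2, Fastkd5, Nsun4, Trmt61b, Zcchc4 and Mettl16 were added, chosen after their values were seen. Members and lists were chosen with earlier results of these data known.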

Additional observations from a re-analysis of the deposited data

Results flagged for a closer look

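At the overlapping peaks that start mt-Nd5, enrichment moved in opposite directions: the log2 fold change was -0.48 in ClpP cKO and 1.48 in ClpX cKO, each against the same WT libraries, in the authors' deposited tables. Among nuclear genes of mitochondrial RNA metabolism the same holds for Polrmt, at -1.81 in ClpP cKO and 0.80 in ClpX cKO, and for Dhx30, at -0.58 in ClpP cKO and 0.83 in ClpX cKO, in the authors' deposited tables. Each nuclear value is from the gene's peak with the smallest p, of 3 ClpP and 2 ClpX peaks for Polrmt and of 2 in each for Dhx30. The Polrmt fold enrichment was 2.26 for ClpP and 8.69 for ClpX, where the peak is longer (79738782 to 79739866). In each case the 1 comparison of a knockout went one way and that of the other knockout the opposite way. The difference itself was not tested. Fastkd2, Alkbh1 and Mrm2 were called lower in both knockouts at overlapping sites.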

How the results depend on the processing

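A count was taken as moved where it differed from the reported one by over 1.5 times, and a median where it differed at 2 decimals; by these bounds 10 of 50 recalculated values moved and 0 reversed. A minimum absolute log2 fold change of 1 left 2 called peaks for ClpP, 2 higher and 0 lower, in place of 7, and all 8 for ClpX. An adjusted p under 0.01, a stricter peak p, a new Benjamini-Hochberg adjustment and subtraction of the table's median left the counts at 6 higher and 1 lower for ClpP and 8 higher for ClpX. These settings could hardly have moved the counts. Among the mitochondrial peaks the weakest log10 adjusted p was -17.5 and the weakest log10 peak p -10.7. The smallest log2 fold change in size was 0.43. Leaving out the ribosomal RNAs removed no ClpX peak, so the ClpX values under that setting could not move. The median log2 fold change for ClpP was 0.82 after subtracting the table's median, 0.84 with 1 value per gene and 0.62 without the ribosomal RNAs, and for ClpX 2.05 and 2.29 under the first 2 of these. The median fold enrichment for ClpP was 2.06 without the ribosomal RNAs, in place of 1.99. Requiring 50% of both peaks to be shared left 1 paired peak in place of 3. In alternatives added after seeing the data, a fold enrichment of at least 1.5 left 5 called peaks for ClpP and 8 for ClpX, and leaving out the mt-Nd5 and mt-Nd6 peaks that share bases left 6 for ClpX. No paired analysis was possible because each group held 1 library. The p-values compare libraries and do not measure the spread between animals, and without read counts the part of depth in them was not tested.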
